A study of Mus musculus with 12 samples.

Results

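The interleukin-1 (IL-1) family was followed in RNA of bone marrow-derived macrophages (BMDMs) through 9 genes of 43131 in the deposited counts. They are the ligands Il1a, Il1b, Il36g and Il18, the inhibitors Il1rn and Il18bp, the receptor chains Il1r1 and Il1rap, and the decoy receptor Il1r2. Of these, 8 were found by their symbol and 1, Il36g, under its older symbol Il1f9. IL-1 alpha and IL-1 beta bind IL1R1, which then recruits IL1RAP and passes a signal through MyD88 and IRAK kinases to NF-kB. IL-1RN occupies the same receptor without signalling, IL-1R2 binds IL-1 without a signalling domain, and IL-18BP captures IL-18 before it reaches its receptor. In macrophages, the precursors of IL-1 beta and IL-18 are cut by caspase-1 once an inflammasome has formed, so that their mRNA level is only the first of several controls.

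The 12 libraries came from C57BL/6 mice whose tlr4 carries loxP sites on both alleles, without cre (tlr4f/f) or with it (tlr4f/f-lysM-cre). Cre is driven by the lysozyme M promoter, so deletion is aimed at myeloid cells. Marrow cells of either genotype were kept in 50 ng/mL M-CSF over 7 days and were left unstimulated (LPS-) or given 1 µg/mL of lipopolysaccharide for 6 h (LPS+), with 3 libraries in each of the 4 groups. All 12 libraries thus carry floxed tlr4, and no library from mice without loxP sites was part of the comparison. LPS is the ligand of TLR4, and the design asks which changes of BMDMs after LPS need this receptor. The sources do not say whether the libraries of a group came from separate mice, so p-values measure only the spread between these libraries. The groups are written f/f LPS-, cre LPS-, f/f LPS+ and cre LPS+ from here on, where f/f is tlr4f/f and cre is tlr4f/f-lysM-cre.

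Counts of the targeted gene went against the headings of 2 groups, and the libraries are therefore called by their headings. Levels are given in CPM, counts scaled to a common library size with the TMM factors of edgeR. Tlr4 was at 76.7 to 147 CPM in the libraries headed f/f LPS- and at 95.1 to 117 CPM in those headed cre LPS-, but at 24.3 to 31.1 CPM in those headed f/f LPS+ and at 24.6 to 27.5 CPM in those headed cre LPS+. Lyz2, the gene that hosts the cre, was at 5949 to 23251 CPM in the 6 libraries headed LPS- and at 10.3 to 75.6 CPM in the 6 headed LPS+. The headings cre LPS- and f/f LPS+ may thus be exchanged, and each comparison is given in both readings. Il1b is among the genes that raised this doubt, so its level cannot decide between the readings. All 7 macrophage markers, such as Adgre1, Csf1r and Cd68, were at 1 CPM or more in every library. Library 3 headed f/f LPS- stood apart from the other 2 of its group, with lower levels of most members. Library totals over genes were between 33577087 and 56445268 counts, with a median of 45330681.

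The members lie on 5 chromosomes of the mouse genome (RefSeq positions, GRCm38.p6, the build also called mm10). On chromosome 2, Il36g (24186476 to 24193567) and Il1rn (24336860 to 24351491) are 143292 bases apart, and Il1a (129299609 to 129310186) and Il1b (129364569 to 129371164) are 54382 bases apart. Il1r2 (40084692 to 40125230) and Il1r1 (40222480 to 40316201) are neighbours on chromosome 1, with 97249 bases between them. Il18 is on chromosome 9 (50554700 to 50581841), Il18bp on chromosome 7 (102015074 to 102018232) and Il1rap on chromosome 16 (26581509 to 26730128).
The stretches before the starts of Il1a, Il1b and Il1rn are shown because Il1a and Il1b had the widest range of levels among the members, and because Il1rn is the gene of their antagonist. Each is the 250 bases before a start listed for the gene in RefSeq, 5′ to 3′ on its strand, and positions count back from that start. The gene spans given above reach further upstream for Il1a and Il1b, so 214 bases of the first sequence and 25 of the second lie inside them. Capitals mark the TATA box (TATAAA, on the strand of the gene) and the AP-1 motif (TGANTCA, both strands).
Il1a: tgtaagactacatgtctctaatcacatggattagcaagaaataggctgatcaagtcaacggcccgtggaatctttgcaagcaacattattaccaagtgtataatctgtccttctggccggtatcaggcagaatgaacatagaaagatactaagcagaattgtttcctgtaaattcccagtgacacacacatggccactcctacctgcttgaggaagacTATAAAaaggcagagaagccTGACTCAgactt
Il1b: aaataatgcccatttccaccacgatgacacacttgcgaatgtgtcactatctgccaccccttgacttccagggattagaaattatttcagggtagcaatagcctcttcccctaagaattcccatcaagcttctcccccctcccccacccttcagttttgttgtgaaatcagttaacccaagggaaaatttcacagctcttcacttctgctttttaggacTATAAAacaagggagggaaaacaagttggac
Il1rn: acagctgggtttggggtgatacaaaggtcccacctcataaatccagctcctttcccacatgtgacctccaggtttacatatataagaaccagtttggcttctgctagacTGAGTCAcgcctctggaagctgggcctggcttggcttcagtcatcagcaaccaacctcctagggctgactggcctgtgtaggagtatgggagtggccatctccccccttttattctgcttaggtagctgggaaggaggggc
The sequence of Il1a is at chr2:129309973-129310222 and that of Il1b at chr2:129371140-129371389, both on the minus strand. That of Il1rn is at chr2:24336610-24336859 on the plus strand, before the first of 3 starts that RefSeq gives for this gene. In Il1a the TATA box began at position -32 and the AP-1 motif at -12, in Il1b the TATA box began at -31, and in Il1rn the AP-1 motif began at -141. Il1a and Il1b were the only members with TATAAA among 12 promoters of the 9 members, and 7.59% of 32851 mouse promoters of this length hold it. An AP-1 motif was in 2 of the 12 and in 6.75% of all. A C/EBP motif (TTGCNNAA) was in promoters of Il18bp and Il1r1 and in 9.56% of all, a PU.1 motif (GAGGAA) in those of Il1a and Il36g and in 23.3% of all, and the NF-kB consensus in 1 promoter of Il1r1 and in 7.25% of all. The ISRE motif (GAAA, any 2 bases, GAAA) was in none of the 12 and in 2.98% of all. These motifs were searched on both strands. PU.1 and TATA box matches of Il1a do not overlap, and a match describes letters only.

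Il1a, which encodes the ligand IL-1 alpha, was at 3.16, 2.29 and 0.168 CPM in the libraries headed f/f LPS- and at 0.796, 0.691 and 0.757 CPM in those headed f/f LPS+. It was at 4278, 449 and 1222 CPM in the libraries headed cre LPS- and at 402, 425 and 435 CPM in those headed cre LPS+. The 6 libraries headed cre were thus all above the 6 headed f/f, and those headed cre LPS- were the most spread. Il1b, which encodes IL-1 beta, was at 6.92, 4.11 and 0.0747 CPM in the libraries headed f/f LPS- and at 2.68, 3.58 and 3.35 CPM in those headed f/f LPS+. It reached 8218, 1640 and 2812 CPM in the libraries headed cre LPS- and 2615, 2686 and 2498 CPM in those headed cre LPS+. For both genes, library 1 headed cre LPS- was the highest of the 12 and library 3 headed f/f LPS- the lowest.
Il36g, whose product signals through the IL-36 receptor together with IL1RAP, was at 10.2, 0.481 and 0.0747 CPM in the libraries headed f/f LPS- and at 0.796, 0.282 and 2.12 CPM in those headed f/f LPS+. In those headed cre LPS- it was at 108, 11.8 and 38.5 CPM, and in those headed cre LPS+ at 33.0, 32.2 and 57.2 CPM. Again no library headed cre was as low as one headed f/f, although 10.2 and 11.8 CPM are close. Il18 was at 2.97, 3.34 and 1.36 CPM in the libraries headed f/f LPS- and at 1.55, 1.31 and 1.34 CPM in those headed f/f LPS+. Its levels were 60.6, 55.1 and 28.9 CPM in those headed cre LPS- and 40.6, 38.9 and 32.6 CPM in those headed cre LPS+. The groups headed cre overlapped each other and were apart from both headed f/f.

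Among the inhibitors, Il1rn was at 129, 265 and 11.1 CPM in the libraries headed f/f LPS- and at 123, 128 and 122 CPM in those headed f/f LPS+. It was at 3603, 4312 and 4289 CPM in the libraries headed cre LPS- and at 588, 475 and 576 CPM in those headed cre LPS+. Unlike the ligands Il1b, Il36g and Il18, it separated the libraries headed cre LPS- from those headed cre LPS+ without overlap. Il18bp was at 15.2, 25.1 and 2.35 CPM in the libraries headed f/f LPS- and at 50.0, 111 and 96.3 CPM in those headed cre LPS-. It was at 3.20, 3.35 and 2.48 CPM in those headed f/f LPS+ and at 11.9, 13.8 and 12.8 CPM in those headed cre LPS+. Its level in the group headed cre LPS+ lay within the range of the group headed f/f LPS-.
The receptor genes were low. Il1rap, the co-receptor shared by IL-1, IL-33 and IL-36, had the smallest spread of the members, with 10.4, 10.3 and 9.17 CPM in the libraries headed f/f LPS-, 7.73, 7.68 and 8.55 CPM in those headed f/f LPS+, 24.1, 24.6 and 21.6 CPM in those headed cre LPS- and 16.0, 18 and 15.6 CPM in those headed cre LPS+. No pair of groups overlapped. Il1r1, the signalling receptor, was at 1.23, 0.305 and 0.971 CPM in the libraries headed f/f LPS- and at 1.18, 0.219 and 1.71 CPM in those headed cre LPS-. It stayed under 0.4 CPM in all 6 libraries headed LPS+, with 0.272, 0.128 and 0.120 CPM for f/f and 0.347, 0.276 and 0.289 CPM for cre. These are 5 to 72 counts per library.
Il1r2 was hardly detected, with 0, 5 and 1 counts in the libraries headed f/f LPS-, 8, 0 and 7 in those headed cre LPS-, 0, 0 and 1 in those headed f/f LPS+ and 0 in all 3 of those headed cre LPS+. A count of 0 allows up to 3 counts per library, which covers counting error only, and a difference between the groups was not detectable at this depth. Il1r2 did not pass the filter on low counts in any comparison, so 8 of the 9 members were tested.

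**Figure D1:**
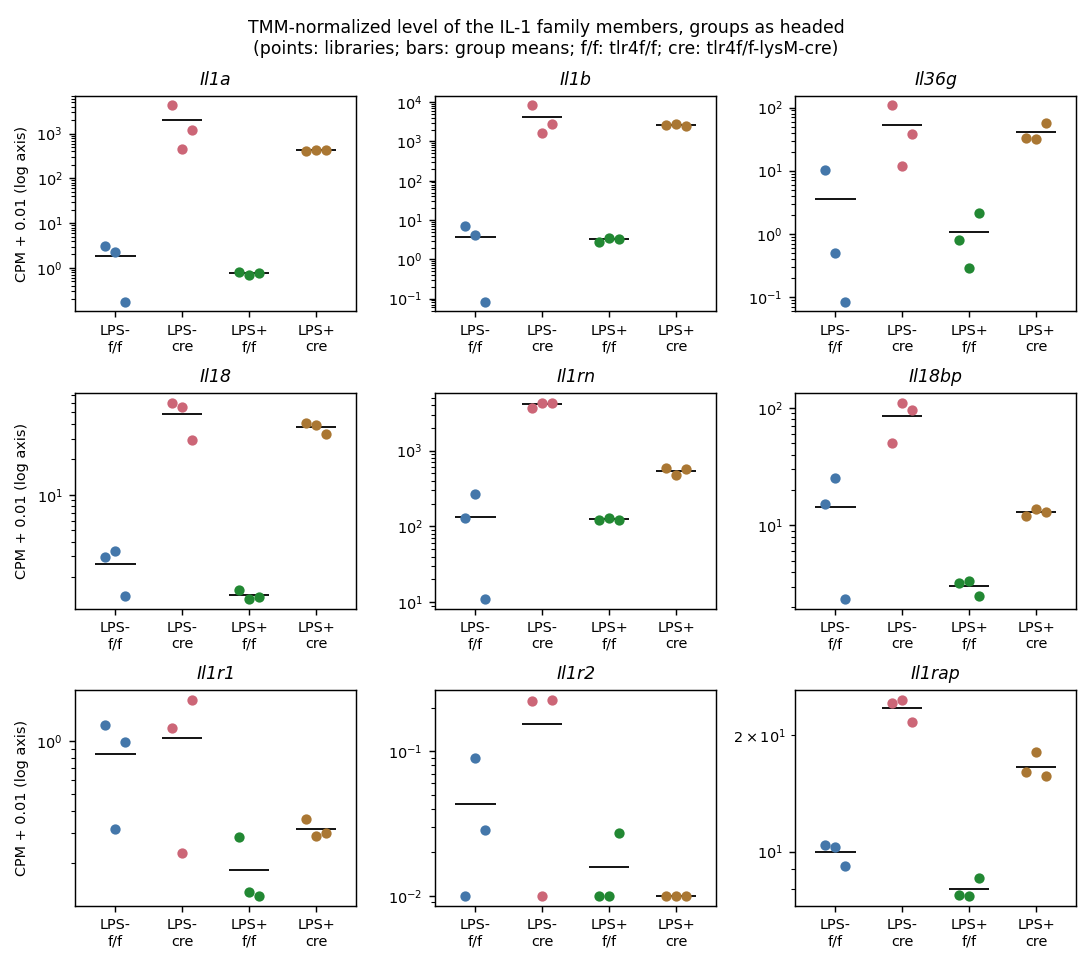
Level of the 9 members in each library, in CPM plus 0.01 on a log axis, by group as headed (f/f is tlr4f/f, cre is tlr4f/f-lysM-cre); points are libraries 1 to 3 from left to right, and bars are group means. Il1a, Il1b, Il36g, Il18, Il1rn and Il1rap are higher in all 6 libraries headed cre than in the 6 headed f/f. Il18bp overlaps, and Il1r1 and Il1r2 are low everywhere. The share of all genes that separate in this way was not counted.

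Corrected for the length of the transcript row used, the genes can be set roughly beside each other. For Il1b that row has 2647 bases, and another row of 1348 bases held 99.5% of its counts. By the shorter row Il1b per kb would be higher, so its order against Il1rn headed cre LPS- is not read. In the libraries headed cre LPS-, Il1rn was at 1640 ± 162 CPM per kb (SD, n = 3), Il1b at 1595 ± 1326 CPM per kb and Il1a at 1004 ± 1026 CPM per kb. Headed cre LPS+, Il1b was the highest of these with 982 ± 35.9 CPM per kb. Il1rn with 220 ± 25.1 CPM per kb and Il1a with 213 ± 8.53 CPM per kb were too close to be ordered. In both groups headed f/f, Il1rn was by far the most abundant member, with 54.5 ± 51.2 CPM per kb for LPS- and 50.2 ± 1.34 CPM per kb for LPS+, against 1.40 ± 1.30 and 1.21 ± 0.177 CPM per kb for Il1b. Il1r1 was at 0.0348 to 0.208 CPM per kb in the group means and Il1rap at 1.75 to 5.12 CPM per kb. RNA of whole cultures cannot tell fewer cells of a type from less RNA per cell.

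The comparison of LPS+ with LPS- in the libraries headed f/f asks what LPS does in BMDMs that keep TLR4. With the headings exchanged it is the comparison of the genotypes without LPS. Each group enters 2 of the 4 comparisons of the design, so that these share libraries. All 8 tested members had a negative log2 fold change, none of them was a differentially expressed gene (DEG) by the thresholds of the study, which ask for more than a 2-fold change with an adjusted p of less than 0.01, and 0% of the 14701 genes tested were. In the quasi-likelihood test of edgeR with Benjamini-Hochberg adjustment, used for every adjusted p here, the median log2 fold change of the members was -1.08, against -0.03 over all genes. At an unadjusted p under 0.05 edgeR found 3624 genes, and DESeq2 called no member. Each standard error given is the size of the log2 fold change divided by the root of the F statistic of the edgeR test.
The largest differences were those of Il1r1, at -2.23 on the log2 scale (standard error 0.662, adjusted p = 0.112), and Il18bp, with -2.22 (standard error 0.776, adjusted p = 0.153). Il1a differed by -1.31 (standard error 0.899, adjusted p = 0.413) and Il36g by -1.72 (standard error 1.61, adjusted p = 0.553), within the spread of the libraries headed f/f LPS-. For Il18 the value was -0.85 (standard error 0.380, adjusted p = 0.229) and for Il1rap -0.29 (standard error 0.126, adjusted p = 0.216). Il1b, at -0.19 (standard error 1.13), and Il1rn, at -0.10 (standard error 0.917), had adjusted p values of 0.935 and 0.960. Without library 3 headed f/f LPS-, Il18bp passed the criteria with a log2 fold change of -2.73 (adjusted p = 0.00661). Without library 1 of that group the sign turned for Il1b, to 0.64, and for Il36g, to 1.96, and without library 2 it turned for Il1rn, to 0.84.

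Between LPS+ and LPS- in the libraries headed cre, the inhibitors were lower in the libraries headed LPS+. With the headings exchanged this is the comparison of the genotypes with LPS. All 8 members had a negative log2 fold change and 2 of the 8 were DEGs, both lower, beside 6.08% of 14234 genes, with 3.65% lower and 2.42% higher. Il1rn fell, at -2.89 on the log2 scale (standard error 0.158, adjusted p = 0.000682), a 7.41-fold difference. Il18bp fell, at -2.73 (standard error 0.292, adjusted p = 0.00242), a 6.64-fold difference. Both were lower in each of the 3 libraries than in any of the other 3.
The ligands had smaller or less certain differences. Il1a was at -2.24 on the log2 scale (standard error 0.752, adjusted p = 0.0690), Il1b at -0.70 (standard error 0.554, adjusted p = 0.387), Il36g at -0.37 (standard error 0.717, adjusted p = 0.729) and Il18 at -0.36 (standard error 0.264, adjusted p = 0.358). The libraries overlapped for Il1b, Il36g and Il18 and not for Il1a. Il1rap had a difference of -0.49 (standard error 0.119, adjusted p = 0.0253), which is under a fold change of 2, and Il1r1 was at -1.77 (standard error 0.724, adjusted p = 0.117). The median over the members was -1.23, against 0.03 over all genes.
Both calls were lost without any 1 of the libraries headed cre LPS+ and kept without any 1 of those headed cre LPS-. For each gene, 9 of 13 alternatives kept direction and call. Without library 1, 2 or 3 headed cre LPS+, the adjusted p was between 0.0108 and 0.0119 for Il1rn and between 0.0230 and 0.0232 for Il18bp, with log2 fold changes of -2.93 to -2.79 and -2.77 to -2.67. In a fit of all 12 libraries it was 0.0179 for Il1rn and 0.0101 for Il18bp. Leaving out library 1 headed cre LPS- turned the sign for Il1b, to 0.21, and for Il36g, to 0.69.

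The genotypes without LPS were compared by their headings, a comparison that with the headings exchanged becomes that of LPS+ with LPS- in f/f. The ligands Il1a, Il1b and Il18 and the co-receptor Il1rap were higher in the libraries headed cre LPS-. All 8 members had a positive log2 fold change and 4 of the 8 were DEGs, beside 17.1% of 14635 genes, with 9.25% higher and 7.81% lower. Il1b was higher by 10.15 on the log2 scale (standard error 1.78, adjusted p = 0.00673) and Il1a by 10.04 (standard error 1.59, adjusted p = 0.00473). The change of Il18 was 4.22 (standard error 0.460, adjusted p = 0.00141), an 18.6-fold difference, and that of Il1rap was 1.23 (standard error 0.155, adjusted p = 0.00212), a 2.34-fold difference.
For Il1rn the log2 fold change was 4.90 (standard error 1.08, adjusted p = 0.0148) and for Il18bp 2.58 (standard error 0.803, adjusted p = 0.0462), so neither passed the criterion of 0.01 in this fit, although the groups did not overlap. Both passed with DESeq2 (adjusted p = 4.09e-09 for Il1rn and 0.000627 for Il18bp) and in an edgeR fit of all 12 libraries (adjusted p = 0.000631 and 0.00557), and Il1rn also with limma (adjusted p = 0.00959). Il36g was at 3.87 (standard error 1.69, adjusted p = 0.117) and Il1r1 at 0.32 (standard error 0.847, adjusted p = 0.792). The median over the members was 4.05, against -0.08 over all genes. Without library 3 headed f/f LPS-, which was the lowest in Il1rn, that gene passed with 4.35 (adjusted p = 0.00266).
Calls were lost when other libraries were left out. Il1a lost its call without library 1 or 2 headed f/f LPS- (adjusted p = 0.0152 and 0.0240) and without library 1 or 3 headed cre LPS- (adjusted p = 0.0104 and 0.0135). Il1b lost it without the same 4 libraries and without library 2 headed cre LPS-, with an adjusted p between 0.0162 and 0.0323. Il1rap lost it without library 2 headed f/f LPS- (adjusted p = 0.0121) and without library 1 headed cre LPS- (adjusted p = 0.0106). The log2 fold change stayed between 8.80 and 10.97 for Il1a and Il1b in these fits. For Il1r1 the sign turned without library 2 headed f/f LPS- and, with a value of -0.24, without library 3 headed cre LPS-.

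The comparison of the genotypes with LPS had the smallest errors. With the headings exchanged it shows LPS+ against LPS- in cre. In the libraries headed cre LPS+, all 8 members had a positive log2 fold change against those headed f/f LPS+, and 7 of the 8 were DEGs, beside 21.7% of 14540 genes, with 10.8% higher and 10.9% lower. Il1b was higher by 9.66 on the log2 scale (standard error 0.106, adjusted p = 2.15e-14), an 809-fold difference, and Il1a by 9.12 (standard error 0.0859, adjusted p = 7.23e-15), a 555-fold difference. Il1a had only 27 to 44 counts per library headed f/f LPS+, and an error derived from the test can be too small there. Il36g was higher by 5.14 (standard error 0.627, adjusted p = 0.00192) and Il18 by 4.73 (standard error 0.118, adjusted p = 8.28e-12).
The inhibitors had smaller fold changes than the ligands. Il1rn was higher by 2.13 (standard error 0.0779, adjusted p = 4.09e-10), a 4.37-fold difference, and Il18bp by 2.09 (standard error 0.136, adjusted p = 4.19e-08), a 4.26-fold difference. Il1rap was higher by 1.04 (standard error 0.0962, adjusted p = 1.13e-06), close to the criterion for fold change, and was no DEG without library 2 headed cre LPS+ (0.98) or with counts summed over its transcripts (0.78). Il1r1 differed by 0.80 (standard error 0.501, adjusted p = 0.190), and the 2 groups did not overlap, with 5 to 15 counts per library. Il36g was no DEG without library 1 headed f/f LPS+ (adjusted p = 0.0131). In a fit of all 12 libraries, Il1rn (adjusted p = 0.0509), Il18bp (adjusted p = 0.0292) and Il36g (adjusted p = 0.0215) were no DEGs. The median over the members was 3.43, against -0.02 over all genes.

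**Figure D2:**
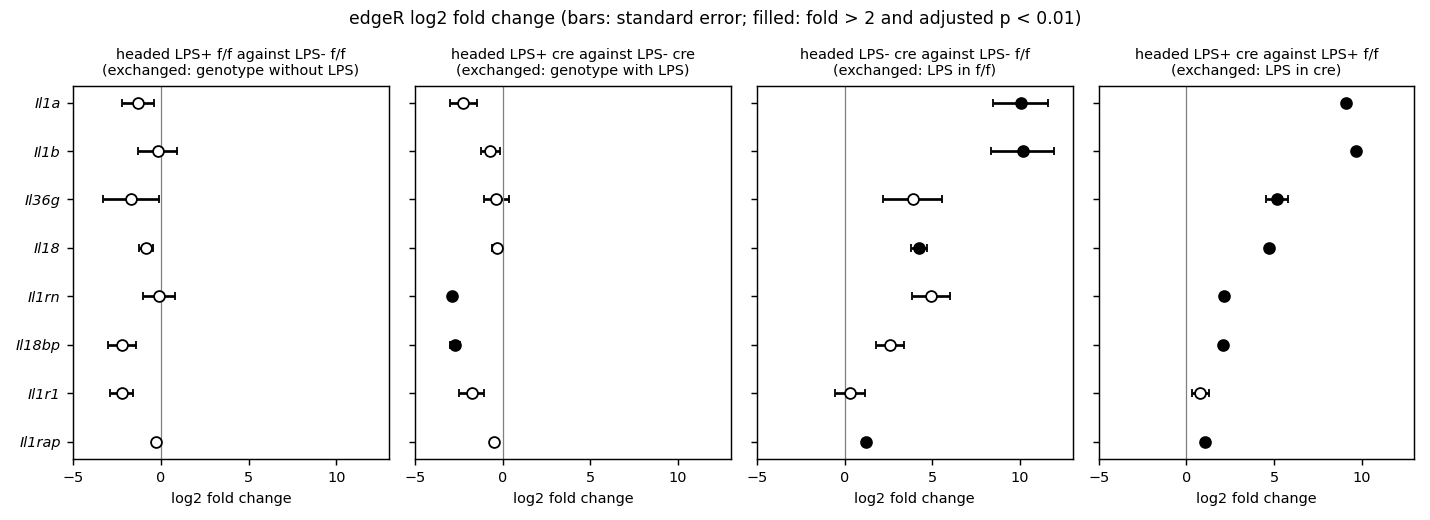
Log2 fold change of the 8 tested members from edgeR in the 4 comparisons of the design as headed, with the comparison that each becomes when the headings are exchanged in the second line. Bars are standard errors derived from the edgeR test, and filled points are DEGs. Il1rn (-2.89) and Il18bp (-2.73) are the only filled points in the second panel, and all members but Il1r1 are filled in the fourth.

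The interaction asks whether the LPS effect differed between the genotypes, and its value is the same in both readings of the headings. None of the 8 members passed the criteria in edgeR, beside 1.04% of 15775 genes, and none had an adjusted p under 0.05, beside 6.99%. At an unadjusted p under 0.05 there were 3706 genes and 1 member, Il1rn, and DESeq2 called no member. The value of Il1rn was -2.78 (standard error 1.03, adjusted p = 0.133), so that the fold change between the genotypes was smaller in the libraries headed LPS+ or, with the headings exchanged, that between LPS+ and LPS- was smaller in cre. Without library 3 headed f/f LPS- it passed the criteria with -2.23 (adjusted p = 0.00719). For the other 7 members the interaction was between -0.91 and 1.34 with an adjusted p from 0.527 to 0.856.
One further comparison keeps its meaning in either reading, that of cre LPS+ with f/f LPS-, which differ in genotype and treatment together. Here 3 of the 8 members were DEGs, beside 13.4% of 14584 genes, with 6.92% higher. Il1b was higher by 9.45 on the log2 scale (standard error 1.46, adjusted p = 0.00437), Il1a by 7.80 (standard error 0.992, adjusted p = 0.00232) and Il18 by 3.86 (standard error 0.351, adjusted p = 0.000751). Il1rap was higher by 0.73 (standard error 0.117, adjusted p = 0.00457), under a fold change of 2. Il1rn (2.02, adjusted p = 0.141), Il36g (3.50, adjusted p = 0.104), Il1r1 (-1.45, adjusted p = 0.0896) and Il18bp (-0.15, adjusted p = 0.884) did not pass the test. Without any 1 of the libraries headed cre LPS+, the adjusted p was between 0.0121 and 0.0136 for Il1a and between 0.0187 and 0.0206 for Il1b, and Il18 was then the only DEG. Il1b also lost its call without library 2 headed f/f LPS- (adjusted p = 0.0173), and Il36g passed without library 1 of that group (7.14, adjusted p = 0.00269).
Between the 2 groups whose headings may be exchanged, 7 of the 8 members were DEGs, all higher in the libraries headed cre LPS-, beside 28.9% of 14583 genes, with 14.7% higher. The log2 fold change was 11.37 for Il1a (adjusted p = 0.000298), 10.36 for Il1b (adjusted p = 0.000123) and 5.02 for Il1rn (adjusted p = 7.31e-06). Il1r1 was at 2.56 (adjusted p = 0.0327) and passed without library 2 headed cre LPS- (3.05, adjusted p = 0.00410), and Il36g lost its call without any 1 of the 3 libraries headed f/f LPS+ (adjusted p from 0.0111 to 0.0260).

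Ordered by mean CPM, the members had their highest mean in the group headed cre LPS-. By the level of separation given below, this group was apart from the next one only for Il1rn, Il18bp and Il1rap. Il1a, Il1b, Il18, Il1rn, Il36g and Il1rap followed the same order, with cre LPS+ next, then f/f LPS- and f/f LPS+. The means of Il18bp, Il1r1 and Il1r2 were higher in the group headed f/f LPS- than in that headed cre LPS+. For Il18bp and Il1r1 these groups were not separated (adjusted p = 0.884 and 0.0896 in edgeR), and Il1r2 was not tested. For Il1r1, the means headed cre LPS- and f/f LPS- were 1.04 and 0.836 CPM (adjusted p = 0.792 in edgeR). Il1r2 had at most 8 counts in any library. The share of all genes that were highest in the group headed cre LPS- was not counted. An adjusted p under 0.05 in edgeR was taken to separate neighbours, a level that 1.27% of all genes passed between the groups headed f/f, 26.7% between those headed cre, 37.3% between the genotypes without LPS, 61.4% with LPS and 40.8% between cre LPS+ and f/f LPS-. By this level, Il1a, Il1b and Il18 were separated only between cre LPS+ and f/f LPS-, and Il1rn only between the 2 groups headed cre. Il1rap was separated at the first step (adjusted p = 0.0253) and at the second (adjusted p = 0.00457). For Il18bp, cre LPS- was separated from f/f LPS- (adjusted p = 0.0462) and cre LPS+ from f/f LPS+ (adjusted p = 4.19e-08). No neighbours were separated for Il36g and Il1r1.

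A ratio of a ligand to its inhibitor within a library needs no scaling between libraries. Ratios are of counts with 0.5 added, without correction for length, so they compare groups and not genes. The ratio of Il1b to Il1rn was 0.0536, 0.0155 and 0.00756 in the libraries headed f/f LPS- and 0.0219, 0.0280 and 0.0275 in those headed f/f LPS+. It was 2.28, 0.380 and 0.656 in those headed cre LPS- and 4.44, 5.66 and 4.34 in those headed cre LPS+. The 4 groups thus fall into low ratios headed f/f and high ratios headed cre, with the highest 3 in the group headed cre LPS+.
On the log2 scale, the ratio of Il1b to Il1rn was higher by 2.53 in the libraries headed cre LPS+ than in those headed cre LPS-, with no overlap. The exact two-sided permutation test gave p = 0.1, the smallest that 3 against 3 libraries allow, and 0.2 after adjustment over 12 tests of ratios. Between the genotypes the difference was 5.49 without LPS and 7.54 with LPS by the headings, each with an exact permutation p = 0.1 and no overlap. Between the libraries headed f/f it was 0.47 (exact permutation p = 0.7).
The ratio of Il18 to Il18bp was 0.196, 0.133 and 0.581 in the libraries headed f/f LPS- and 0.485, 0.392 and 0.543 in those headed f/f LPS+. It was 1.21, 0.497 and 0.301 in those headed cre LPS- and 3.41, 2.83 and 2.54 in those headed cre LPS+. Here only the last group was apart from the other 3, by a log2 difference of 2.36 from cre LPS- and of 2.63 from f/f LPS+ (exact permutation p = 0.1 for each). The ratio of Il1r1 to Il1r2 ranged from 3.55 to 145 and rests on Il1r2 counts of 0 to 8, so no difference is read from it.

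**Figure D3:**
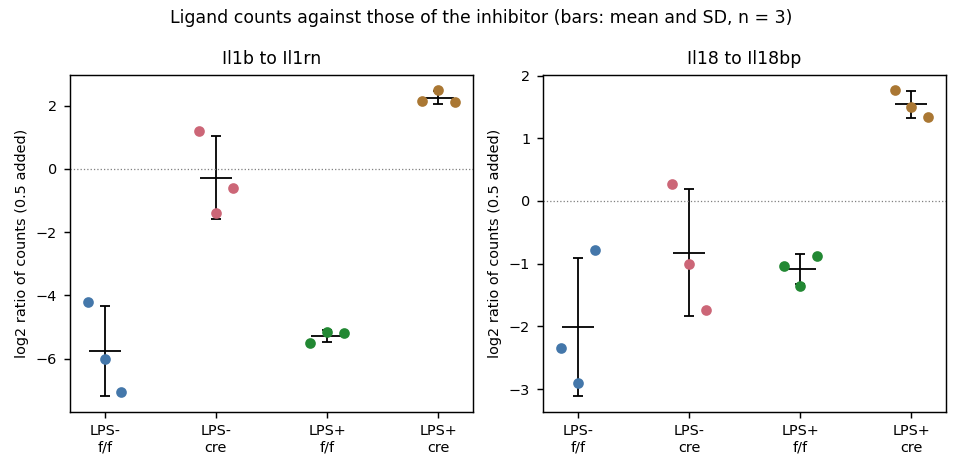
Log2 ratio of the counts of Il1b to Il1rn and of Il18 to Il18bp in each library by group as headed; black bars are the mean and SD of 3 libraries, and the dotted line marks equal counts. The 3 libraries headed cre LPS+ have the highest ratios in both panels, from 4.34 to 5.66 and from 2.54 to 3.41 before the log.

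The other genes of the IL-1 family were mostly silent. Of 12 further ligands and receptors, Il36b, Il1f10, Il1rapl1 and Il1rapl2 had no counts in any library, and Il33, Il36rn and Il18r1 had at most 15 counts in any. Between the genotypes without LPS by the headings, 5 of the 12 were tested and 3 were DEGs, 1 higher and 2 lower, beside 17.1% of all genes. Il36a, a ligand like Il36g, was higher by 6.35 on the log2 scale in the libraries headed cre LPS- (standard error 1.12, adjusted p = 0.00667), with 0.0160 to 0.154 CPM against 1.53 to 8.74 CPM. Sigirr, an inhibitory receptor of the family, was at 0.866 to 1.11 CPM in the libraries headed f/f LPS- and at 0 to 3 counts in those headed cre LPS-.
With LPS by the headings, all 5 tested were DEGs, 2 higher and 3 lower, beside 21.7% of all genes. Il36a was higher by 6.02 (standard error 0.649, adjusted p = 1.21e-05), and Il1rl1, the receptor of IL-33, was lower with -2.86 (standard error 0.193, adjusted p = 5.97e-08). Il1rl1 was also the only one of 4 tested that was called between the libraries headed cre, beside 6.08% of all genes, and it was higher by 2.88 in those headed LPS+ (standard error 0.476, adjusted p = 0.00811). Between the libraries headed f/f, none of the 4 tested was called. The median log2 fold change of this list was -1.90 without LPS and -2.001 with LPS, against -0.08 and -0.02 over all genes.

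All 20 genes of IL-1 receptor signalling were tested. By the headings, 12 of the 20 were DEGs between the genotypes without LPS, 10 of them higher and 2 lower in the libraries headed cre, beside 17.1% of all genes. With LPS it was 9 of the 20, 8 higher and 1 lower, beside 21.7%. Nfkbiz, which encodes the NF-kB cofactor IkB zeta, was higher by 4.96 on the log2 scale without LPS (standard error 0.294, adjusted p = 0.000410) and by 5.65 with LPS (standard error 0.131, adjusted p = 2.16e-09). Nfkbia, which encodes the NF-kB inhibitor IkB alpha, was higher by 4.46 without LPS (standard error 0.285, adjusted p = 0.000460), and Irak3, which encodes the inhibitory kinase IRAK-M, by 3.85 with LPS (standard error 0.0693, adjusted p = 8.58e-13). Peli2 was lower in both, with -3.37 and -1.55, and Tab1 was lower without LPS, with -1.67. The kinase genes Irak1 and Irak4 and the adaptor genes Traf6 and Tollip were no DEGs in either. Within the libraries headed cre, 3 were DEGs, all lower in those headed LPS+ and beside 6.08% of all genes, among them Peli1, which encodes an E3 ubiquitin ligase, with -1.83 (standard error 0.123, adjusted p = 0.000951), and Nfkbia with -1.23 (standard error 0.126, adjusted p = 0.00208). None was a DEG between the libraries headed f/f. The medians were 1.01, 0.61, -0.35 and -0.19 in the same order, against -0.08, -0.02, 0.03 and -0.03 over all genes.
Of 13 genes for the maturation and release of IL-1 and IL-18, 6 were DEGs between the genotypes without LPS by the headings, all higher, beside 17.1% of all genes. With LPS it was 7 of the 13, 6 higher and 1 lower, beside 21.7%. Mefv, which encodes pyrin, was higher by 5.08 on the log2 scale without LPS (standard error 0.511, adjusted p = 0.00121) and by 3.82 with LPS (standard error 0.282, adjusted p = 4.95e-06). Casp4, which encodes the caspase that senses LPS in the cytosol, was higher by 4.06 without LPS (standard error 0.441, adjusted p = 0.00141). Nlrp3, the sensor of the inflammasome that cuts IL-1 beta, was higher by 3.21 with LPS (standard error 0.103, adjusted p = 4.50e-09), and the gene lower there was Capn2, a calpain gene, with -1.19. Pycard, which encodes the adaptor ASC, had adjusted p values of 0.517 without LPS and 1.48e-07 with LPS, where its log2 fold change was -0.94. Within the libraries headed cre, 4 were DEGs, all lower in those headed LPS+ and beside 6.08% of all genes, with Mefv at -2.77 (standard error 0.297, adjusted p = 0.00242) and Casp4 at -1.23 (standard error 0.102, adjusted p = 0.00125). The medians were 1.24, 0.90, -0.62 and -0.08 in the order above.

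**Figure D4:**
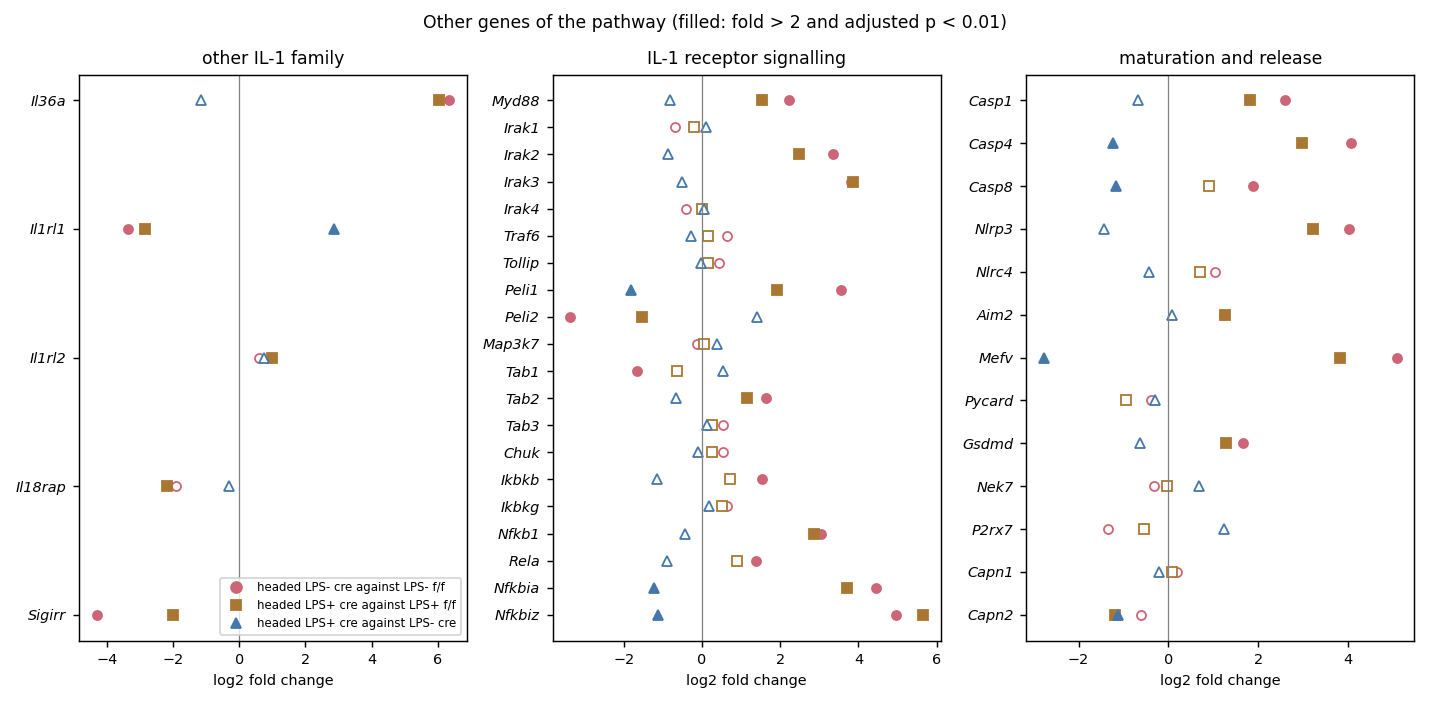
Log2 fold change from edgeR of the tested genes of 3 lists, in 3 comparisons as headed (circles and squares compare the genotypes without and with LPS, triangles LPS+ with LPS- in cre); filled symbols are DEGs. Nfkbiz, Nfkbia, Irak3, Mefv, Casp4 and Nlrp3 lie at 2.96 or more in both comparisons of the genotypes, while Irak4, Nek7 and Capn1 have open symbols only.

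Across the 12 libraries the log2 CPM of the tested members other than Il1r1 was correlated, with Pearson's r of at least 0.656 (Il18bp and Il36g). This describes libraries that share group and depth and carries no test. Pearson's r was 0.986 for Il1a and Il1b, 0.980 for Il1a and Il18, 0.885 for Il1b and Il1rn and 0.775 for Il18 and Il18bp, and between 0.154 and 0.411 for Il1r1 and any other member. Among 15729 genes outside the lists, those most like Il1b were Kmt5a (0.997), Cxcl1 (0.994) and Cxcl2 (0.993), of which Cxcl1 and Cxcl2 encode neutrophil-attracting chemokines. The nearest to Il1a was Nploc4 (0.998), to Il18 Ifi203 (0.997), to Il1rap Snx20 (0.994), to Il1rn Tfe3 (0.992), to Il36g Gsr (0.980), to Il18bp Fcgr4 (0.977) and to Il1r1 Slc1a4 (0.936).

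Markers of other cells varied between the libraries. The summed level of 8 genes of fibroblasts and stroma was 689, 63.7 and 10.9 CPM in the libraries headed f/f LPS- and 1010, 192 and 1550 CPM in those headed cre LPS-, but 22.9 to 27.7 CPM in those headed f/f LPS+ and 47.7 to 60.8 CPM in those headed cre LPS+. Of these 8 genes, 4 and 7 were at 1 CPM or more in every library of the first 2 groups, and 5 and 6 in the others. Il1r1 was higher in the same groups headed LPS-, and lowest in library 2 of either, which in the group headed cre LPS- also had the lowest sum. In the group headed f/f LPS-, library 3 had the lowest sum, but its Il1r1 was at 0.971 CPM, against 0.305 CPM in library 2. The part of these cells in the level of Il1r1 was not tested.
The sum of 11 neutrophil genes was 3.98 to 52.3 CPM in the libraries headed f/f LPS-, 60.1, 30.0 and 241 CPM in those headed cre LPS- and 10.8 to 19.6 CPM in the 6 headed LPS+. At most 3 of the 11 were at 1 CPM or more in every library of a group, and Ly6g, which defines neutrophils, had no counts in 3 of the 4 groups. Neutrophils also express Il1b, Il1rn and Il1r2. In library 3 headed cre LPS-, which had the highest sum, Il1r2 was at 0.218 CPM with 7 counts. Library 1 of that group, with a sum of 60.1 CPM, was level with it at 0.215 CPM and 8 counts. Il1rn in library 3 was at 4289 CPM, close to the highest of 4312 CPM, and Il1b at 2812 CPM, below the highest of 8218 CPM. Markers of mast cells and basophils, lymphocytes and dendritic cells summed to at most 6.35 CPM in any library. The part of these cells in the levels of the members was not tested.

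Counting affects the members differently, since the deposited rows are transcripts that share reads. The other rows of Il1rn, a gene with 3 starts, held 90.2% to 98.1% of the row used, so the secreted and intracellular forms of the antagonist cannot be told apart. For Il1rap, the row of the shorter form held 20.5% to 43.4% of the row used. The second row of Il18bp held 39.3% to 58.2% of the first. Exons of Il18bp share 80 bases with Numa1 on the opposite strand, those of Il1a 222 bases with Gm14023, those of Il1b 25 bases with Il1bos and those of Il1rap 353 bases with Gm20319, and without strand in the counting such reads cannot be told apart.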

How the data were processed

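RNA of 12 BMDM cultures was sequenced after rRNA removal (the labels also name poly(A) selection). The authors trimmed reads with Trimmomatic 0.36, used HISAT2 for alignment to mm10, and assigned reads to transcripts with HTSeq. The deposited table holds raw counts (whole numbers) for 115140 transcripts. Sums over all rows count shared reads more than once, so for each of 43131 genes the row with the highest total was used, with totals of 33577087 to 56445268 per library. HISAT2 was run with its default settings, and the strand setting for the counting is not given in the sources used here. The deposited counts have no molecular identifiers, so intervals and floors cover counting error only.

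Groups follow the column headings. Each comparison used edgeR 4.0.16 in R 4.3.3 (TMM, filterByExpr, robust quasi-likelihood) on its 6 libraries, the interaction on all 12, with Benjamini-Hochberg adjustment over all genes tested. Standard errors are the size of the log2 fold change over the root of the F statistic, and not fitted errors. They can be too small where a change is large and a group has few counts. DEGs changed more than 2-fold at an adjusted p of less than 0.01, as in the study, which ran DESeq. Ratios of counts were compared with exact permutation tests in scipy 1.17.1. Correlations used log2 CPM with a prior count of 2. Named genes are the 9 members, Tlr4 and Lyz2, the genes of 3 pathway lists, with values for the 2 DEGs with the largest change per list and comparison, and for each member the genes outside the lists with the highest Pearson's r; Peli2, Tab1, Capn2, Pycard and the genes with no or few counts were named after their values were seen. Members, lists and the exchange of headings were chosen with earlier results of these data known. Promoter sequences are those of RefSeq in GRCm38.p6 and were found for all 9 members.

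Alternatives were DESeq2 1.42.0, RLE factors in edgeR, limma 3.58.1 with voom and weights per sample, genes with as little as 1 count kept, sums over transcripts, a single fit of all 12 libraries, a block for the replicate number, the looser adjusted p of 0.05, each library left out in turn, and the headings exchanged. The main edgeR fit of each comparison was first run on simulated counts, and the other tests were not. Kidney and protein measurements of the study were not analysed here.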

Additional observations from a re-analysis of the deposited data

Results flagged for a closer look

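None of the 8 tested members had an interaction of genotype and LPS past an adjusted p of 0.05. In 5 genes of the pathway lists the effect of LPS differed between the genotypes by the interaction test of edgeR (adjusted p under 0.05 over 15775 genes, of which 6.99% passed), with the same value in both readings of the headings. These were 0 of 5 tested in the other IL-1 family, 3 of 20 in IL-1 receptor signalling and 2 of 13 in maturation and release. Only Peli1 was a DEG by this test, beside 1.04% of all genes. For Peli1 the interaction was -1.66 (adjusted p = 0.00183), with means of 33.7 and 400 CPM in the libraries headed f/f LPS- and cre LPS- and of 29.8 and 112 CPM in those headed LPS+. Casp8, which encodes a caspase that can also cut pro-IL-1 beta, was at -0.98 (adjusted p = 0.0138), and Casp1, which encodes the main IL-1-converting enzyme, at -0.79 (adjusted p = 0.0299). Irak1 was at 0.49 (adjusted p = 0.0314) and Myd88, which encodes the adaptor shared by TLR4 and the IL-1 receptor, at -0.68 (adjusted p = 0.0355). Peli1 and Casp8 kept an adjusted p under 0.05 in all 18 alternatives, Casp1 in 10, Myd88 in 9 and Irak1 in 8 of the 18.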

How the results depend on the processing

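With the headings exchanged, the number of members called was 4 for LPS in f/f, 7 for LPS in cre, 0 for the genotypes without LPS and 2 with LPS. A fit of all 12 libraries called 0 for LPS in cre and 4 for the genotypes with LPS, but 6 for the genotypes without LPS, where it gained Il1rn and Il18bp. Without a filter, 2 were called for the genotypes without LPS and 1 for cre LPS+ against f/f LPS-, and the cause was not tested. Leaving out 1 library called 0 to 1 for LPS in f/f, 0 to 2 for LPS in cre, 1 to 5 for the genotypes without LPS, 6 to 7 with LPS, 0 to 1 for the interaction, 1 to 4 for cre LPS+ against f/f LPS- and 6 to 8 for the groups with doubtful headings.

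Same-numbered libraries did not deviate together in every pair (r from -0.01 to 0.16, -0.04 to 0.10, 0.01 to 0.47 and 0.06 to 0.19 in the 4 comparisons), so the replicate number was not used as a pairing. Of 6 libraries, 3, 2, 4 and 6 were closest to one of their own number. With it as a block, 1 member was called for cre LPS+ against f/f LPS- and 3 for the genotypes without LPS, where Il1b was lost (adjusted p = 0.0126). The block turned the sign for Il1b and Il1rn (0.63 and 0.63) for LPS in f/f, for Il36g (0.14) for LPS in cre and for Il18bp (0.31) for cre LPS+ against f/f LPS-.

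Over all the alternatives, among them each library left out and the replicate block, the sign turned for some differences that were not called. For LPS in f/f the log2 fold change was -0.77 to 0.64 for Il1b, -0.64 to 0.84 for Il1rn and -2.69 to 1.96 for Il36g, and for LPS in cre -1.08 to 0.21 for Il1b and -0.84 to 0.69 for Il36g. For the genotypes without LPS it was -0.24 to 0.79 for Il1r1, and for cre LPS+ against f/f LPS- -0.66 to 0.54 for Il18bp. The interaction was -1.50 to 0.33 for Il1a, -1.30 to 0.43 for Il1b, -1.19 to 0.010 for Il18bp and -2.30 to 2.41 for Il36g. Of all log2 fold changes of members under the alternatives, 697 kept direction and call, 43 lost the call, 11 gained it and 17 turned. Low counts limit what can be said of Il1r1 and Il1r2.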
